A study of Homo sapiens with 4 samples.

Results

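Box C/D small nucleolar RNAs (snoRNAs) of SKOV3, a human ovarian cancer cell line, were compared between cells exposed to the ginseng saponin 20(S)-Rg3 and control cells. The rows were taken by symbol and abundance: of 40205 gene rows in the count table, 282 had a symbol beginning with SNORD, and the 179 of these with at least 40 counts summed over the 4 libraries form the set described here. Members were thus chosen by symbol and by their summed counts over both groups, with earlier results of these data known. Of the 103 SNORD rows left out, 80 had no count and 23 had at least 1. Just inside the minimum stood SNORD107, SNORD64, SNORD115 and SNORD111, with summed counts of 45, 62, 66 and 70. Just outside it stood SNORD116-9, SNORD103B, SNORD103A and SNORD96B, with 33, 31, 26 and 18. RefSeq gives the class snoRNA to 176 of the 179 symbols, and 3 (SNORD115, SNORD116 and SNORD85) had no direct match. SNORD3A is given apart from the other 178 rows because it took 84.86% and 85.01% of all box C/D counts in the Rg3 libraries and 84.24% and 83.74% in the control libraries.

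Box C/D snoRNAs are short nuclear RNAs that bind fibrillarin, NOP56, NOP58 and SNU13. Most of them pair with ribosomal RNA and direct the 2′-O-methylation of the paired nucleotide, some direct the methylation of spliceosomal RNA, and a few such as U3 are needed to cleave the ribosomal RNA precursor. Most human box C/D snoRNAs lie in introns and are released from the spliced intron of a host gene, which may encode a ribosomal protein or be a non-coding gene such as GAS5 or SNHG1. U3, U8 and U13 are instead transcribed from genes of their own.

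Each group held 2 libraries. The Rg3 group had received 80 µg/mL of the compound for 24 h. The control group is labelled only as control, with no vehicle named, and both groups grew in the same serum-containing medium. Total RNA was depleted of ribosomal RNA and fragmented, and the labels describe the RNA of each library as pooled without saying whether libraries came from separate cultures. A p-value here therefore reflects library-to-library spread, part or all of which may be technical. Total counts were 30132517 and 24571619 in the Rg3 libraries and 24482846 and 26731913 in the control libraries. Of the markers of this epithelial line, ERBB2, KRT8 and KRT18 were present in every library (45.2 CPM or more each, counts per 1e6 after scaling), whereas KRT19 had 2 counts in control 1 and 0 elsewhere. The leukocyte genes PTPRC and CD3E and the hepatocyte gene ALB were at or near 0 (at most 3 counts in any library). CD68 and CDH5, from the leukocyte and endothelial lists, were at 10.45 to 21.29 CPM. The summed levels were 3361 to 5328 CPM for the 4 line markers. Nearly all of that sum came from the keratins KRT8 and KRT18, with ERBB2 at 45.2 to 53.5 CPM. The sums were 10.54 to 21.54 CPM for the 4 leukocyte genes and 16.47 to 19.81 CPM for the 3 endothelial genes. For the 2 hepatocyte genes the sum was at most 0.189 CPM. In such bulk RNA, a lower level in every cell and a loss in some of the cells cannot be told apart.

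Since box C/D RNAs are cut out of host transcripts, the starts of a few host genes are shown with the letters around them. Host genes of this kind often begin within a run of pyrimidines, the 5′ terminal oligopyrimidine tract known from ribosomal protein messages. Each line gives 60 bases before and 16 bases from the RefSeq start of the gene on its own strand (build GRCh38.p14), and capitals mark the unbroken run of C and T that includes the start base. The first 3 are hosts whose snoRNA rows had some of the larger differences, and SNX5 and PTCD3 are hosts whose single rows, SNORD17 and SNORD94, had log2 fold changes of 0.09 and 0.18.
SNHG1 (chr11:62855870-62855945, minus strand): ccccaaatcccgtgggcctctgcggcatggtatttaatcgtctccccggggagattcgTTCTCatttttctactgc
EIF4A2 (chr3:186783517-186783592, plus strand): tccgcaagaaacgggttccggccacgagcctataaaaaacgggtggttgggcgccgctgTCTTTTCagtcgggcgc
RPL7A (chr9:133348158-133348233, plus strand): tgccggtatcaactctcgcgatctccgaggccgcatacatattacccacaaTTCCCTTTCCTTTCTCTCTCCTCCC
SNX5 (chr20:17968779-17968854, minus strand): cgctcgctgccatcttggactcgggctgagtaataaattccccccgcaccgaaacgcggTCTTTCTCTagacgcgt
PTCD3 (chr2:86106175-86106250, plus strand): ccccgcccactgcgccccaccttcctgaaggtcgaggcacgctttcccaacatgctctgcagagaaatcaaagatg
A run of at least 5 bases made only of C and T, read on the gene's strand and covering the start, was present at 21 of 50 host starts in the RefSeq table (42%), against 9.6% of all 35116 starts there. Of the starts printed, RPL7A had a run of 25 bases, SNX5 one of 9, EIF4A2 one of 7, SNHG1 one of 5 and PTCD3 none. The printed starts do not stand for all hosts. By the same measure GAS5, RPL4, SNHG16 and SNHG29 had no run, and the rows of these hosts had median log2 fold changes of −0.49, −0.52, −0.43 and −0.46. The measure counts only a run that includes the annotated RefSeq start base. It cannot show that these hosts lack a terminal tract, since the start used in these cells may be another base. The same limit applies to the share of 42%. RACK1 had a run of 18 bases and RPS3 one of 14, and their rows had medians of −0.18 and −0.08.

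Most box C/D rows were lower after Rg3, by a modest amount. All 179 passed the low-count filter and were tested, and 160 of them had a log2 fold change below 0, a direction that 47.5% of all 16323 tested genes shared. Their median log2 fold change was −0.34 (a 20.9% lower level), against 0.01 over all tested genes, with quartiles of −0.47 and −0.17. In 119 rows (66.5%) both Rg3 libraries lay below both controls, compared with 17% of all tested genes. In 6 rows both lay above, compared with 15.3% of all tested genes, and in 54 rows the groups overlapped.

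No single box C/D row passed the threshold. With edgeR's quasi-likelihood test and Benjamini-Hochberg adjustment 0 of the 179 rows were called, where 0.0306% of all tested genes were, and DESeq2 also called 0, where it called 0.331% of all tested genes. At an unadjusted p under 0.05, 45 rows (25.1%) were lower, against 2.9% of all tested genes, and 0 were higher, against 1.83%. DESeq2 placed 34 rows below that unadjusted threshold on the lower side, against 1.62% of all tested genes, and 0 on the higher side, against 1.19%. The median of the rows stayed between −0.42 and −0.25 whichever library was left out.

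The number of calls depended on the libraries and on the fit. Leaving out an Rg3 library leaves that group with 1 library, which is then assumed to vary like the controls. When Rg3 replicate 1 was left out, edgeR called 52 rows (48 lower and 4 higher), where 5.37% of all tested genes were called. When Rg3 replicate 2 was left out it called 11 rows, all lower, where 2.68% of all tested genes were called. When control replicate 1 or control replicate 2 was left out it called 0, where 0.635% and 0.291% of all tested genes were called. The rows called without Rg3 replicate 1 included SNORD13 as higher, and those called without Rg3 replicate 2 included SNORD13 as lower. Without a low-count filter 6 rows were called, all lower, where 0.834% of all tested genes were called.

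At an unadjusted p under 0.05, 90 rows were lower and 10 higher without Rg3 replicate 1, against 11.8% and 11.2% of all tested genes. Without Rg3 replicate 2, 67 were lower and 0 higher, against 7.98% and 9.86%. Without control replicate 1, 11 were lower and 1 higher, against 1.66% and 1.14%. Without control replicate 2, 3 were lower and 0 higher, against 1.28% and 1% of all tested genes. Lower rows outnumbered higher rows in each of these 4 fits, which share libraries and so are not separate evidence. Over all tested genes the lower share was also the larger, except without Rg3 replicate 2. Without control replicate 2 the share of lower box C/D rows was near that of all tested genes.

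**Figure D1:**
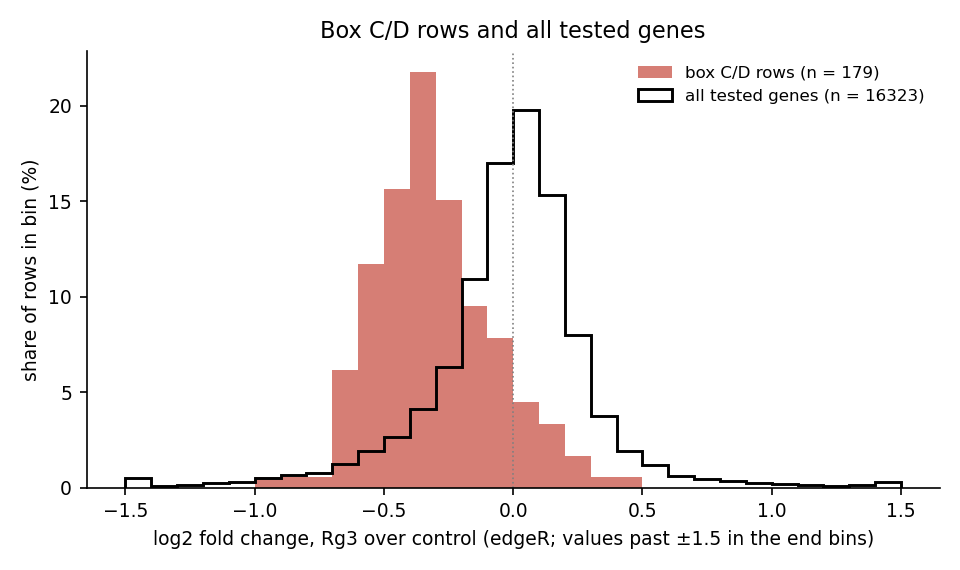
Distribution of the log2 fold change of Rg3 over control for the 179 box C/D rows (filled) and for all 16323 tested genes (outline), as a share of rows per bin. The box C/D rows centre on −0.34 and all tested genes on 0.01.

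SNORD3A encodes U3, the snoRNA that pairs with the precursor of ribosomal RNA and takes part in its early cleavages. It had 104990 and 124550 CPM in the Rg3 libraries and 117470 and 113830 CPM in the controls. One Rg3 library lay below both controls and the other above both, so the groups overlapped. As a share of all counts it held 10.74% and 12.22% with Rg3 and 11.83% and 11.26% in controls, each with an exact 95% interval of at most 0.013 points to either side, which covers counting error only. The log2 fold change was −0.01 (SE 0.15), with an adjusted p of 0.999 in edgeR's test.

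The remaining U3 rows are near-identical copies among which reads may have been split, so their single values are uncertain. SNORD3B-1 was at 1417 and 1459 CPM with Rg3 and 1761 and 1652 CPM in controls, with no overlap between the groups. SNORD3C was at 3869 and 4631 CPM with Rg3 and 4579 and 5126 CPM in controls. SNORD3B-2 was at 1470 and 2650 CPM with Rg3 and 1769 and 1721 CPM in controls, so only Rg3 replicate 2 stood above the controls. SNORD3D was at 1742 and 2032 CPM with Rg3 and 1727 and 1188 CPM in controls, the reverse order to SNORD3B-1. Summed over all 5 U3 rows, the level was 124400 ± 15440 CPM with Rg3 and 125410 ± 2680 CPM in controls (mean ± SD, n = 2 each). None of the 5 had an unadjusted p under 0.05, where 2.9% of all tested genes were lower and 1.83% higher at that threshold.

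Of the other 8 rows on the list of ribosomal RNA processing, 5 overlapped between the groups. In 3 (SNORD14A, SNORD14C and SNORD22) both Rg3 libraries lay below both controls, an arrangement that 17% of all tested genes had. SNORD118 (U8, needed for the large-subunit RNAs) was at 63.3 and 94.7 CPM with Rg3 and 88.3 and 91.9 CPM in controls. SNORD13 (U13) was at 62.2 and 129.7 CPM with Rg3 and 90.1 and 100.8 CPM in controls, so the Rg3 libraries lay on opposite sides of both controls. In both of these RNAs, made from their own genes, Rg3 replicate 1 was low and Rg3 replicate 2 was not. SNORD22 (U22), from an intron of SNHG1, was at 304.6 and 338.6 CPM with Rg3 and 389.9 and 387.1 CPM in controls, a log2 fold change of −0.27 (SE 0.14). The U14 rows SNORD14A to SNORD14E, whose sequences are alike, had log2 fold changes from −0.31 (SNORD14A) to −0.01 (SNORD14B), and SNORD14A and SNORD14C had no overlap between groups. SNORD14D and SNORD14E had −0.21 and −0.25, with overlap. Over all 13 rows of this role the median was −0.19. At an unadjusted p under 0.05, 0 were lower, against 2.9% of all tested genes, and 0 higher, against 1.83%.

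**Figure D2:**
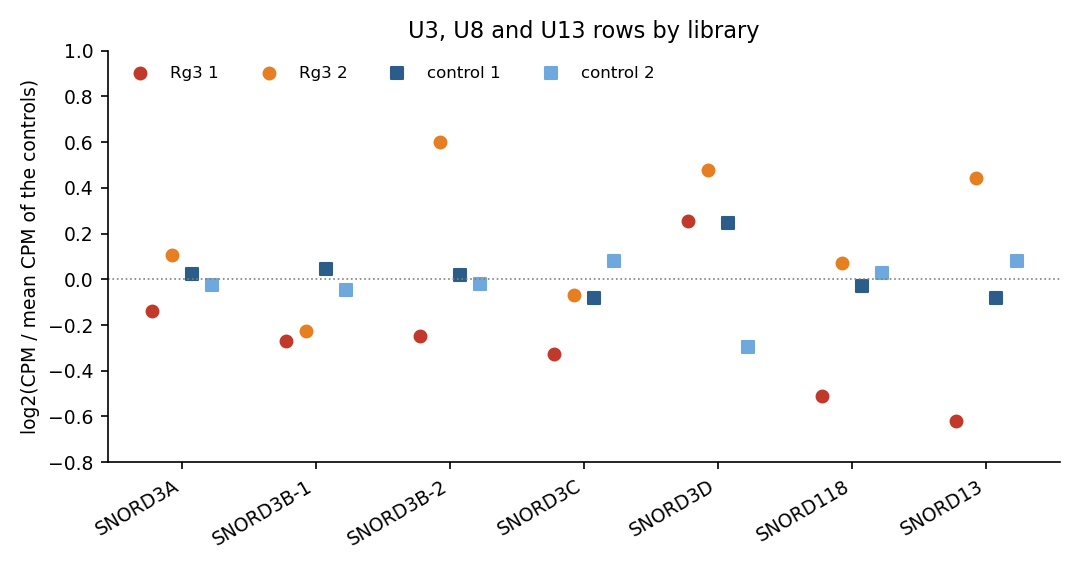
Level of each U3, U8 (SNORD118) and U13 (SNORD13) row in each library, as log2 of its CPM over the mean CPM of the controls; circles are Rg3 libraries and squares are controls. Rg3 replicate 1 lies below both controls in 6 of 7 rows, with SNORD3D the exception, and Rg3 replicate 2 spreads to either side.

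Among the guides of U6 spliceosomal RNA, 4 of 6 had a log2 fold change below 0, against 47.5% of all tested genes. Their median was −0.06. SNORD7 was at 10.3 and 14.7 CPM with Rg3 and 16.4 and 16.8 CPM in controls (log2 fold change −0.41, SE 0.20). When a library was left out, the log2 fold change of SNORD7 ran from −0.68 to −0.17 and that of SNORD94 from −0.18 to 0.48. SNORD10 was at 1032 and 942 CPM with Rg3 and 1157 and 1067 CPM in controls (−0.17, SE 0.14). In SNORD7 and SNORD10 both Rg3 libraries were below both controls, an arrangement that 17% of all tested genes had. SNORD9 had the opposite arrangement, which 15.3% of all tested genes had. It was at 15.4 and 15.9 CPM with Rg3 and 15.1 and 13.4 CPM in controls. With 6 rows, these counts cannot set the guides apart from all tested genes. The log2 fold changes of SNORD8, SNORD67 and SNORD94 were −0.09, −0.02 and 0.18, with overlap between the groups.

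Rows from introns of non-coding host genes had the lowest median of the host classes, −0.39 over 62 rows. In 49 of these rows both Rg3 libraries lay below both controls, an arrangement that 17% of all tested genes had. The non-coding host GAS5 carries 10 of the rows, all of them methylation guides, and all 10 had a log2 fold change below 0 (from −0.63 to −0.25). SNORD76 was at 160.7 and 129.6 CPM with Rg3 and 214.3 and 200.8 CPM in controls (−0.52, SE 0.15). SNORD47 was at 132.5 and 107.1 CPM with Rg3 and 142.5 and 166.5 CPM in controls (−0.37, SE 0.16). In both, the Rg3 libraries were the lowest 2 of the 4, with Rg3 replicate 2 lower than Rg3 replicate 1. Summed over the 10 rows the level was 558.7 ± 115.1 CPM with Rg3 and 771.4 ± 0.625 CPM in controls (mean ± SD, n = 2 each). The GAS5 rows differed between the Rg3 libraries by a median log2 of 0.49 and between the controls by 0.04. Their median difference from the controls was −0.26 for Rg3 replicate 1 and −0.72 and −0.71 for Rg3 replicate 2.

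SNHG1, another non-coding host, carries 8 rows. In all 8 both Rg3 libraries were below both controls, an arrangement that 17% of all tested genes had. SNORD27, a guide of small-subunit RNA, was at 181.5 and 129.1 CPM with Rg3 and 228.0 and 257.3 CPM in controls (log2 fold change −0.64, SE 0.19). SNORD29, a guide of large-subunit RNA, was at 35.001 and 29.247 CPM with Rg3 and 47.3 and 56.9 CPM in controls (−0.70, SE 0.16). The rows of this host had a median of −0.45, from −0.70 to −0.27, and summed to 1019 ± 127.4 CPM with Rg3 and 1375 ± 22.8 CPM in controls (mean ± SD, n = 2 each). The rows of non-coding hosts with 1 or 2 rows had log2 fold changes from −0.66 to −0.24. SNORD87, from SNHG6, was at 49.95 and 41.86 CPM with Rg3 and 77.6 and 67.4 CPM in controls (−0.66, SE 0.15). SNORD50B, from SNHG5, was at 24.2 and 16.7 CPM with Rg3 and 30.1 and 34.7 CPM in controls (−0.66, SE 0.20). These 2 rows are among the 10 lowest of the set. Nearer to 0, and named after their values were seen, were SNORD50A of the same host at −0.32, SNORD60 of SNHG19 at −0.35, SNORD48 of SNHG32 at −0.25 and SNORD99 of SNHG12 at −0.24. The 3 rows of ZFAS1 had the highest median of the non-coding hosts with at least 3 rows, −0.30, with SNORD12B at −0.39 and SNORD12C at −0.14. For SNHG16 the median was −0.43 (SNORD1C −0.43, SNORD1B −0.35), with ranges of −0.89 to −0.09 for SNORD1C and −0.56 to −0.17 for SNORD1B when a library was left out. For SNHG29 it was −0.46 (SNORD65 −0.46, SNORD49A −0.22).

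**Figure D3:**
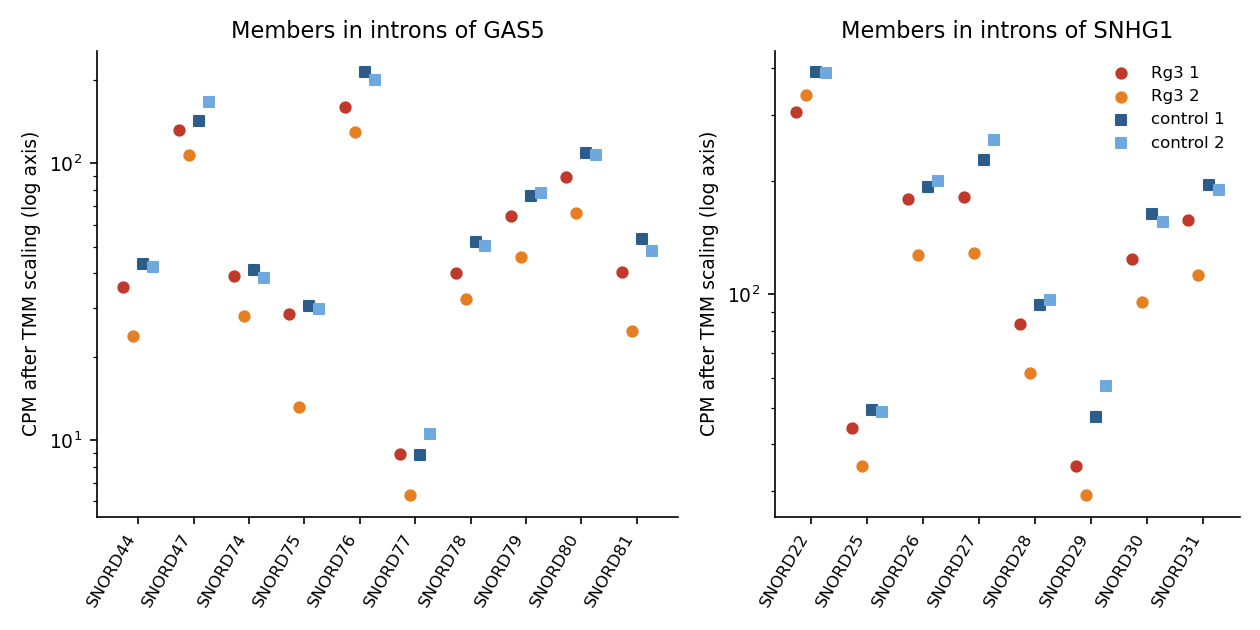
CPM in each library (log axis) of the 10 rows from introns of GAS5 and the 8 rows from introns of SNHG1; circles are Rg3 libraries and squares are controls. Both Rg3 libraries lie below both controls in 8 of 10 GAS5 rows and in all 8 SNHG1 rows, against 17% of all tested genes. Rg3 replicate 2 is the lowest library in all 10 and in 7 of 8.

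The imprinted SNHG14 locus of the Prader-Willi region carries orphan snoRNAs, which have no known target in ribosomal RNA. Its 28 rows had a median of −0.36, with 22 below 0. At an unadjusted p under 0.05, 2 of them (7.14%) were lower, against 2.9% of all tested genes, and 0 were higher, against 1.83%. Of the 28 rows, 25 are numbered copies of SNORD116, and reads may have been exchanged between copies of like sequence. SNORD116-24 was at 1.91 and 2.24 CPM with Rg3 and 3.24 and 3.36 CPM in controls (−0.67, SE 0.25), and SNORD116-1 had −0.58 (SE 0.21). In these copies the Rg3 libraries were both below the controls. SNORD116-23, the copy with the most counts, was at 5.06 and 8.79 CPM with Rg3 and 7.22 and 7.60 CPM in controls, so its groups overlapped. A row named SNORD116 with no copy number, which was not counted among the 28, was at 188.3 and 211.2 CPM with Rg3 and 209.3 and 215.7 CPM in controls (−0.09, SE 0.14). SNORD107, on 45 counts in all, stood at −0.81 (SE 0.48). SNORD116-22, on 76 counts in all, stood at −0.80 (SE 0.38). Summed over the 28 rows the level was 57.8 ± 3.90 CPM with Rg3 and 71.0 ± 0.546 CPM in controls (mean ± SD, n = 2 each), and here the 2 Rg3 libraries differed by a median of only 0.06.

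Rows from introns of ribosomal protein genes had a median of −0.29 over 38 rows, with 36 below 0. Both Rg3 libraries lay below both controls in 27 of them, against 17% of all tested genes, and above both in 0, against 15.3%. Of the ribosomal protein hosts with at least 3 rows, RPL4 had the lowest median, −0.52, with no overlap in any of its 4 rows. SNORD18B, named here after its value was seen, was at 26.8 and 23.2 CPM with Rg3 and 37.8 and 39.7 CPM in controls (−0.63, SE 0.15). SNORD18A was at 123.0 and 100.9 CPM with Rg3 and 160.8 and 137.7 CPM in controls (−0.41, SE 0.16). SNORD16, from the same host, had −0.22 (SE 0.15), a smaller difference than its neighbours but still without overlap. The rows of RPL23A and RPL7A had medians of −0.47 and −0.46. Among them SNORD36B was at 19.3 and 12.8 CPM with Rg3 and 22.6 and 26.1 CPM in controls, and SNORD24, SNORD4A and SNORD42B had log2 fold changes of −0.36, −0.42 and −0.39. The rows of RPL17 had a median of −0.36 (SNORD58A −0.59, SNORD58B −0.36).

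RPL13A and RPL3 gave values nearer to 0, whereas RPL21 and RPL13, with 1 row each, stood at −0.47 and −0.40. The rows of RPL13A had a median of −0.18. Of these SNORD33 was at 128.1 and 136.9 CPM with Rg3 and 146.8 and 158.6 CPM in controls, and SNORD32A at 99.6 and 176.7 CPM with Rg3 and 116.8 and 160.5 CPM in controls. SNORD33 had no overlap, whereas in SNORD32A the Rg3 libraries were the lowest and the highest of the 4. The rows of RPL3 had a median of −0.18, with SNORD83A at −0.18 and SNORD83B at 0.02.

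Rows from introns of other protein-coding genes spanned the widest range, from −0.90 to 0.40, with a median of −0.31 over 55 rows. SNORD59B, from ATP5F1B, the gene of an ATP synthase subunit, had the lowest log2 fold change of all 179 rows. It was at 8.82 and 6.26 CPM with Rg3 and 14.1 and 14.1 CPM in controls (−0.90, SE 0.21, adjusted p = 0.607 in edgeR's test). SNORD2, from the translation factor gene EIF4A2, was at 70.8 and 55.8 CPM with Rg3 and 94.5 and 102.9 CPM in controls (−0.64, SE 0.16). Both Rg3 libraries were below both controls in these 2 rows. SNORD19B, from the nucleolar GTPase gene GNL3, was at 3.57 and 3.57 CPM with Rg3 and 5.31 and 6.05 CPM in controls (−0.67, SE 0.21). SNORD19 of the same host had the highest log2 fold change of all rows, 0.40 (SE 0.38), on 94 counts in all, at 0.908 and 1.12 CPM with Rg3 and 0.649 and 0.870 CPM in controls, while SNORD69 had −0.45. The snoRNA-binding protein genes are hosts as well: rows of NOP56 had a median of −0.33 (SNORD110 −0.46, SNORD56 −0.39) and rows of NOP58 one of −0.36 (SNORD11 −0.41, SNORD11B −0.25). RABGGTB rows had a median of −0.36, with SNORD45B at −0.57, SNORD45A at −0.36 and SNORD45C at 0.17. The HSPA8 rows, which are U14 copies, had a median of −0.21.

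Above their controls stood few rows. SNORD23 was at 63.71 and 74.96 CPM with Rg3 and 59.3 and 59.1 CPM in controls (log2 fold change 0.23, SE 0.14), and SNORD88B was at 7.43 and 8.13 CPM with Rg3 and 6.94 and 6.35 CPM in controls (0.23, SE 0.19). These 2 had no overlap between the groups. With SNORD3D, SNORD19, SNORD9 and SNORD116-21 they make up the 6 rows in which both Rg3 libraries were above both controls. Among the rows with the highest log2 fold changes, SNORD116-13 and SNORD116-20, at 0.14 and 0.19, had an Rg3 library below both controls or between them.

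The median difference of the host genes themselves was near 0. For 61 of the 62 listed hosts a row of the host itself was tested, and their median log2 fold change was 0.02, with 27 below 0 and 34 above. None had an unadjusted p under 0.05, where 2.9% of all tested genes were lower and 1.83% higher at that threshold. In 7 hosts both Rg3 libraries lay below both controls, against 17% of all tested genes. In 7 hosts both lay above, against 15.3%. The median of the snoRNA rows of a host was below 0 for 57 of the 61 and below that of the host for 54, with a median gap of −0.40. GAS5 itself was at 59.9 and 89.3 CPM with Rg3 and 69.9 and 68.1 CPM in controls, so the Rg3 library with the lower GAS5 snoRNAs had the higher GAS5. SNHG1 had 68.3 and 97.6 CPM with Rg3 and 83.7 and 85.3 CPM in controls, in the same arrangement. For SNHG6, the host of SNORD87, the values were 18.1 and 35.2 CPM with Rg3 and 23.8 and 24.1 CPM in controls. For ATP5B, the older symbol of the host of SNORD59B, they were 954.8 and 1090 CPM with Rg3 and 982.4 and 1106 CPM in controls. RPL4 had a log2 fold change of −0.03, EIF4A2 −0.18 and RPL13A −0.32, the last below its own snoRNA rows. These host genes were named after their values were seen. Across the 61 hosts, Pearson's r between host and snoRNA log2 fold change was −0.03 and Spearman's rho −0.02, a description over genes that share the same libraries. Hosts and snoRNA rows overlap in the genome and the strand and feature rules of counting are not given in the sources used here, so part of a host's counts may be snoRNA reads or the reverse.

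**Figure D4:**
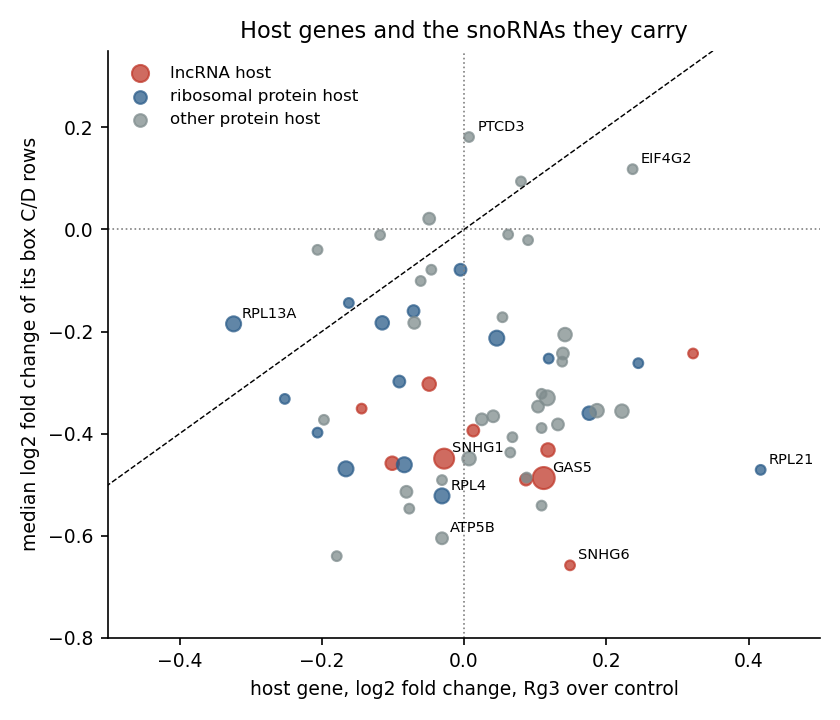
Median log2 fold change of the box C/D rows of each host (vertical) against the log2 fold change of the host gene itself (horizontal), for 61 hosts; point area grows with the number of rows and the dashed line marks equal values. For 54 hosts the point lies below the dashed line.

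Other RNA classes were set beside the box C/D rows, as values only, since no test of the difference between classes was made. The 95 tested H/ACA rows, guides of pseudouridylation, had a median of −0.14, with 82 below 0. In 43 of them (45.3%) both Rg3 libraries lay below both controls, against 17% of all tested genes. The 24 Cajal body rows had a median of −0.01, the 40 spliceosomal U RNA rows −0.09 and the 79 cytosolic ribosomal protein genes 0.00. RMRP, RPPH1, RN7SK and TERC, other short non-coding RNAs, had log2 fold changes between 0.05 and 0.27, each with overlap. The Rg3 libraries differed from each other in all of these classes. The median log2 difference of Rg3 replicate 1 from Rg3 replicate 2 was 0.12 over box C/D rows, −0.12 over H/ACA rows, −0.37 over Cajal body rows, −0.39 over ribosomal protein genes and −0.53 over spliceosomal RNA. The same difference between control 1 and control 2 lay between −0.07 and −0.04 in the classes just listed. For RMRP, RPPH1, RN7SK and TERC the median was −0.47 between the Rg3 libraries and −0.12 between the controls. Within the box C/D rows the median difference between the Rg3 libraries was 0.21 for non-coding hosts and for ribosomal protein hosts. It was 0.10 for other protein hosts and −0.26 for the 7 independent units. How this difference between the Rg3 libraries bears on the comparison with controls was not tested.

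Summed over the 178 rows other than SNORD3A it was 18735 and 21959 CPM with Rg3 and 21977 and 22106 CPM in controls. Without the U3 rows the sums were 10237 and 11188 CPM with Rg3 and 12141 and 12419 CPM in controls, so both Rg3 libraries stood below both controls in either sum, in the first by a small gap for Rg3 replicate 2. No p is given for these sums, since 2 libraries against 2 cannot give an exact two-sided p below 0.333. Rows with under 400 counts had a median log2 fold change of −0.33, those with at least 400 and under 4000 counts −0.39 and those with 4000 or more −0.25.

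**Figure D5:**
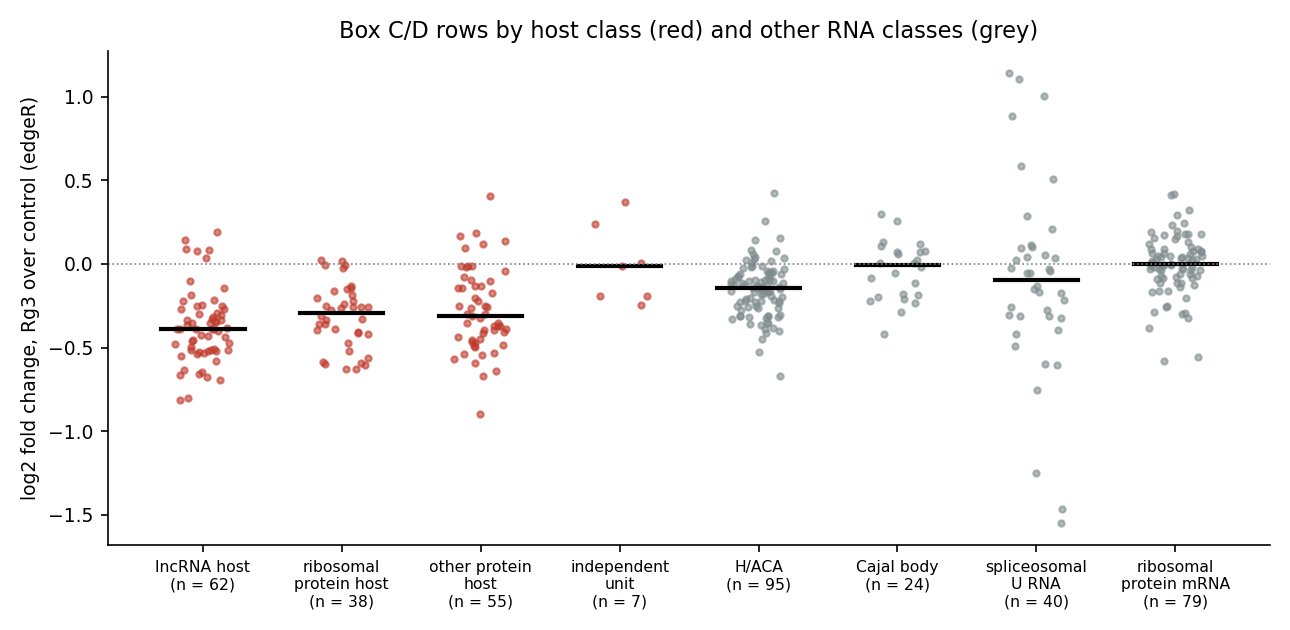
Log2 fold change of Rg3 over control for single rows (points) and their median (bar), for box C/D rows by class of host gene and for 4 other RNA classes; the 17 rows with no listed host are not drawn. Medians are −0.39, −0.29 and −0.31 in the 3 host classes, −0.01 for independent units and −0.14 for H/ACA rows.

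The genes of box C/D particle assembly were measured in the same libraries, on a list of 23 that covers core proteins, assembly factors, trafficking and cap factors, and end trimming. All 23 were tested, 20 had a log2 fold change above 0 and 3 below, and the median was 0.11, against 0.01 over all tested genes. With edgeR's quasi-likelihood test 0 of the 23 were called, where 0.0306% of all tested genes were. At an unadjusted p under 0.05, 0 were lower, against 2.9% of all tested genes, and 0 higher, against 1.83%. In 7 of the 23 both Rg3 libraries lay above both controls, against 15.3% of all tested genes. In 2 both lay below, against 17%. Fibrillarin, the methyltransferase, encoded by FBL, was at 57.5 and 47.6 CPM with Rg3 and 50.2 and 47.4 CPM in controls. NOP56 was at 203.5 and 223.4 CPM with Rg3 and 192.1 and 201.4 CPM in controls, and NOP58 at 83.8 and 92.3 CPM with Rg3 and 75.7 and 78.9 CPM in controls. Both of these scaffold proteins had their Rg3 libraries above the controls, by log2 fold changes of 0.12 (SE 0.13) and 0.19 (SE 0.13). The other core proteins, FBL and SNU13, overlapped between the groups. SNU13, listed as NHP2L1, had 0.03 and the U3-specific protein gene RRP9 had 0.13. The ends of the range were NUFIP1, an assembly factor, at 0.29 (SE 0.22), and PIH1D1, a subunit of the R2TP chaperone complex, at −0.19 (SE 0.14).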

How the data were processed

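The deposited table held raw counts per gene symbol, whole numbers not normalised by the authors, with 1 column per library; the genome build was GRCh37 per the submitters' processing notes, and the aligner, counter, annotation and strand setting are not given in the sources used here. Of 40205 rows, 16323 passed filterByExpr (minimum count 10, minimum total 15) in edgeR 4.0.16 under R 4.3.3. Libraries were scaled by TMM and tested by quasi-likelihood with Rg3 as the single factor (2 residual degrees of freedom), Benjamini-Hochberg adjustment over all tested genes and a threshold of 0.05. CPM values are counts over the TMM-scaled library size. Standard errors come from the F statistic. Medians between single libraries used log2 CPM with 0.5 counts added. The fit was tested on simulated data. Alternatives were DESeq2 1.42.0, other scalings, no low-count filter, a minimum of 400 counts, each library left out and a replicate block.

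Members and lists (hosts, roles, assembly genes, markers) were chosen with earlier results of these data known; host and role lists come from general knowledge of the genes. Named rows were those on the role lists, the 10 lowest and 10 highest log2 fold changes, the 2 with most counts of each host with at least 3 rows, those nearest the 40-count minimum and the assembly genes. Sequences are from RefSeq start tables; no snoRNA sequence was used here. No sequence from chromosome 8 is shown. The results of 1 host gene are not reported here.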

Additional observations from a re-analysis of the deposited data

How the results depend on the processing

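The number of called box C/D rows, 0 in edgeR's test, was 6 without a low-count filter, 8 with a replicate block, and between 0 and 52 when a library was left out. It was 0 with DESeq2, with other size factors (RLE), and with library sizes taken without SNORD3A or without any snoRNA. Unadjusted counts under 0.05, 45 in the test reported, ran from 3 to 100 with a library left out. The median log2 fold change of the rows other than SNORD3A ran from −0.42 to −0.25 and the log2 ratio of their summed level from −0.23 to −0.002 with a library left out, and both stayed within 1 SD of the spread between replicates under every other alternative. The cause was not tested. The log2 fold change of SNORD3A ran from −0.14 to 0.11 and turned positive without Rg3 replicate 1 and without control replicate 1.

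Of 80 single genes, 23 changed sign in at least 1 fit, most by leaving out a library. With a library left out the ranges were −0.62 to 0.45 for SNORD13, −0.51 to 0.075 for SNORD118, −0.25 to 0.61 for SNORD3B-2, −0.20 to 0.23 for SNORD14B, −0.27 to 0.19 for SNORD67, −0.24 to 0.039 for SNORD8 and −0.18 to 0.48 for SNORD94. They were −0.48 to 0.35 for SNORD32A, −0.34 to 0.31 for SNORD46, −0.20 to 0.21 for SNORD83B, −0.58 to 0.035 for SNORD11B and −0.22 to 0.49 for SNORD45C. For SNORD116-13, SNORD116-20 and SNORD116-23 they were −0.22 to 0.48, −0.23 to 0.54 and −0.55 to 0.25. For FBL and RRP9 they were −0.032 to 0.24 and −0.01 to 0.30, and for the hosts ATP5B, EIF4A2, GAS5, RPL4, SNHG1 and SNHG6 −0.13 to 0.066, −0.53 to 0.11, −0.20 to 0.38, −0.14 to 0.079, −0.30 to 0.21 and −0.40 to 0.56. With the replicate block SNORD13 was at −0.084, SNORD14B at 0.009 and SNORD46 at −0.011, and without a low-count filter SNORD14B was at 0.001 and SNORD32A at 0.002.

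The replicate numbers are shared by the groups, but nothing says that they pair libraries. Deviations of same-numbered libraries correlated at 0.149 over all tested genes and 0.0598 over SNORD rows. With the block 8 rows were called, all lower, where 0.95% of all tested genes were called.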
